A study of Mus musculus with 8 samples.

Results

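Kinesin motor genes were taken as the genes of the array whose name in the scanner files begins with Kif and a digit, or with Kifc. This found 35 genes with 73 probes, of 27845 named features and 41174 non-control probes. Each gene is given by its brightest probe, taken as the mean of log2 intensity in both dyes of every array, and in 8 of the 20 genes with another tested probe the means of 2 probes differed by 0.5 or more in some comparison; those probes are described with their gene. Of the 35 genes, 33 were tested: in at least 1 comparison the named or the control RNA was well above background on both arrays. Kif21a and Kif27 were well above background in no RNA and are not described further. The tested genes were 12 mitotic kinesins, 16 of the 17 transport kinesins on the array, and 5 of 6 with other or unsettled roles.

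Kinesins are motor proteins that use ATP to walk along microtubules. The mitotic members build and hold the spindle, move chromosomes and complete cell division, so their transcripts are abundant in dividing cells. The transport members carry vesicles, organelles, mRNA and ciliary cargo through the cytoplasm. B cell precursors that grow with the cytokine IL-7 divide, and use both kinds.

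The cells were bone marrow pro/preB cells of Pax5-/- mice, which lack the transcription factor needed for B lineage commitment, grown with IL-7 on gamma-irradiated OP9 stromal cells, a feeder line whose RNA can remain in a harvest. Clone4 huPax5 is 1 clone of such cells, with a retroviral human Pax5 transgene under a doxycycline-dependent promoter and the transactivator rtTA. It was given doxycycline at 10, 300 or 1000 ng/ml (called low, middle and high dose), and clone4 huPax5 without doxycycline (0 ng/ml) was the control RNA in every comparison. Pax5sz2 cells were Pax5-/- cells with rtTA and without huPax5, labelled as treated with doxycycline with no dose given; in that comparison transgene, treatment and cell line cannot be told apart. Every RNA compared here thus came from cells without mouse Pax5 function that carried rtTA. Each of the 4 comparisons was 1 RNA pair on 2 dye-swapped Agilent arrays, which makes 8, and the labels give no replicate cultures. The question asked of the dose comparisons is which genes differ with the amount of the inducer of Pax5.

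All values are log2 ratios of the named RNA over the control RNA, given as the array with the named RNA in Cy5 and then the array with it in Cy3. A ratio is called past the size when it is at least 2-fold (log2 of 1 or more, or -1 or less) in the same direction on both arrays. This is a description of 1 RNA pair and no test, and the SD of the 2 arrays is technical. In whole-culture RNA, fewer cells of a type and less RNA per cell cannot be told apart.

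Over all tested features the 2 arrays of a comparison correlated at 0.84 at the low dose, 0.64 at the middle dose, 0.83 at the high dose and 0.92 for Pax5sz2, so the middle-dose values carry the largest technical error. Per the file headers, the high-dose pair was scanned on an earlier day and extracted with an earlier Feature Extraction protocol than the other 6 arrays, so scan, extraction and dose cannot be told apart there. Its ratios ran against those at the middle dose on arrays of the same dye orientation, with correlations of -0.37 and -0.48 over features, while the low and middle doses correlated at 0.61 and 0.85. The direction of the high-dose pair is therefore not settled: its ratios are given as labelled, with the values for the turned sign beside them, where the named and the control RNA change places. Of 2 probes for mouse Pax5, 1 lay between 2.32 and 3.15 at the low dose, the middle dose and in Pax5sz2, which has no huPax5, and at 0.25 and -0.04 at the high dose (-0.25 and 0.04 turned). The other lay between -0.52 and 0.28 on all arrays as labelled, so neither probe checks the transgene. Of the 12 pro-B markers, 9 to 12 were well above background in both RNAs of each comparison, but their levels differed. In Pax5sz2, 2 were past the size upward (Vpreb1 at 7.88 and Igll1 at 5.65), against 2.33% of all tested features. Downward were 2 (Dntt at -4.89 and Ebf1 at -1.58), against 2.83%. At the high dose 2 were upward and 2 downward under either sign, against 1.93% and 0.636% as labelled. At the low and middle doses 0 were called, and Dntt had no mean at the middle dose. Markers of the stromal feeder (14 genes) and of myeloid cells (12 genes) were measured too, and are given beside Kifc1 and Kif5a.

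Kifc1, the minus-end-directed motor that focuses spindle poles and clusters extra centrosomes, was the kinesin that stood highest at the lower doses. Its ratio was 2.18 and 2.69 at the low dose and 2.87 and 2.66 at the middle dose, which is 5.40-fold and 6.80-fold on average. As labelled, at the high dose it was -0.75 and -0.53, and with the sign turned 0.75 and 0.53. In Pax5sz2 it was 0.52 and 1.65, past the size on 1 array only. The low- and middle-dose arrays thus overlapped with each other and lay above all arrays of the other comparisons, under either sign of the high-dose pair.

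The intensities show where this difference lies. In the control RNA, Kifc1 stood at a log2 intensity of 9.33 and 9.40 on the low-dose arrays, 9.54 and 9.28 on the middle-dose arrays and 9.56 and 9.34 on the Pax5sz2 arrays. The named RNA stood at 11.50 and 12.08 at the low dose, 12.41 and 11.94 at the middle dose, and 10.08 and 10.98 in Pax5sz2. On the high-dose arrays the order was turned: the control RNA was at 10.23 and 10.08, and the named RNA at 9.48 and 9.55, near the control level of the other arrays.

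The second Kifc1 probe gave the same picture, at 2.45 and 2.64, 2.45 and 2.63, -0.44 and -0.46 (0.44 and 0.46 turned), and 0.76 and 1.67 in the same order of comparisons. Its accession belongs to Kifc5b in the RefSeq table (GRCm38.p6), a gene closely related to Kifc1. Whether the probes tell transcripts of the pair apart was not checked, so the ratios are not assigned to 1 of the 2 genes. Both are shown by the 250 bases before the annotated start, since the 2 probes moved together: Kifc1 at chr17:33890634-33890883 on the minus strand and Kifc5b at chr17:26916841-26917090 on the plus strand. With Kifc5b shifted by 28 bases, 191 of 222 aligned positions were identical (86%). Capitals mark CCAAT, the box bound by NF-Y in many promoters of division genes, and TTTGAA, the core of the cell cycle homology region, on either strand (ATTGG and TTCAAA).
Kifc1: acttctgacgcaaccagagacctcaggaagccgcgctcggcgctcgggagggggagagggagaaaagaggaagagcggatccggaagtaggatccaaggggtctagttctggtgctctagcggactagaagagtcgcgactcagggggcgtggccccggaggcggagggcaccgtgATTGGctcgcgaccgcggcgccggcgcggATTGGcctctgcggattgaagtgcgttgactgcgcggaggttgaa
Kifc5b: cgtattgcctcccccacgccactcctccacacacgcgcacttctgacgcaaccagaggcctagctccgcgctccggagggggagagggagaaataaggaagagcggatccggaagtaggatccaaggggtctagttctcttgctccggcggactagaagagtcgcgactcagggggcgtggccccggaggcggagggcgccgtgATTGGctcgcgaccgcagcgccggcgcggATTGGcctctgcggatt
Both promoters held ATTGG at 2 places, at 74 and 45 bases before the start of Kifc1 and at 46 and 17 bases before that of Kifc5b, and neither held TTTGAA.

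Stromal marker RNA was, as labelled, higher in the same 3 comparisons as Kifc1. The brightest Kif15 probe and Kif2c lay above 0 in these comparisons too. With the high-dose sign turned, Kifc1 was above 0 at the high dose as well (0.75 and 0.53), with a stromal median of 0.11. Of 14 stromal markers, 3 were past the size upward at the low dose, against 0.596% of all tested features, 5 at the middle dose against 1.3%, and 4 in Pax5sz2 against 2.33%. In Pax5sz2, 1 was past it downward, against 2.83% of all features. On the high-dose arrays 0 were past it in either direction, against 1.93% upward and 0.636% downward. The log2 of their summed intensity was 15.51 to 15.72 in the named RNA against 14.89 to 15.02 in the control at the low dose, and 15.58 to 15.82 against 14.64 to 14.96 at the middle dose. Col1a2 lacked a value on at least 1 middle-dose array and could not be called at that dose. It is left out of the sum only on an array where it was missing, so the sums at that dose can differ by this gene. In Pax5sz2 the sum was 15.43 to 15.49 against 15.05 to 15.11, and at the high dose 14.94 to 15.14 against 14.93 to 14.98. Their part in the Kifc1 ratio was not tested.

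**Figure D1:**
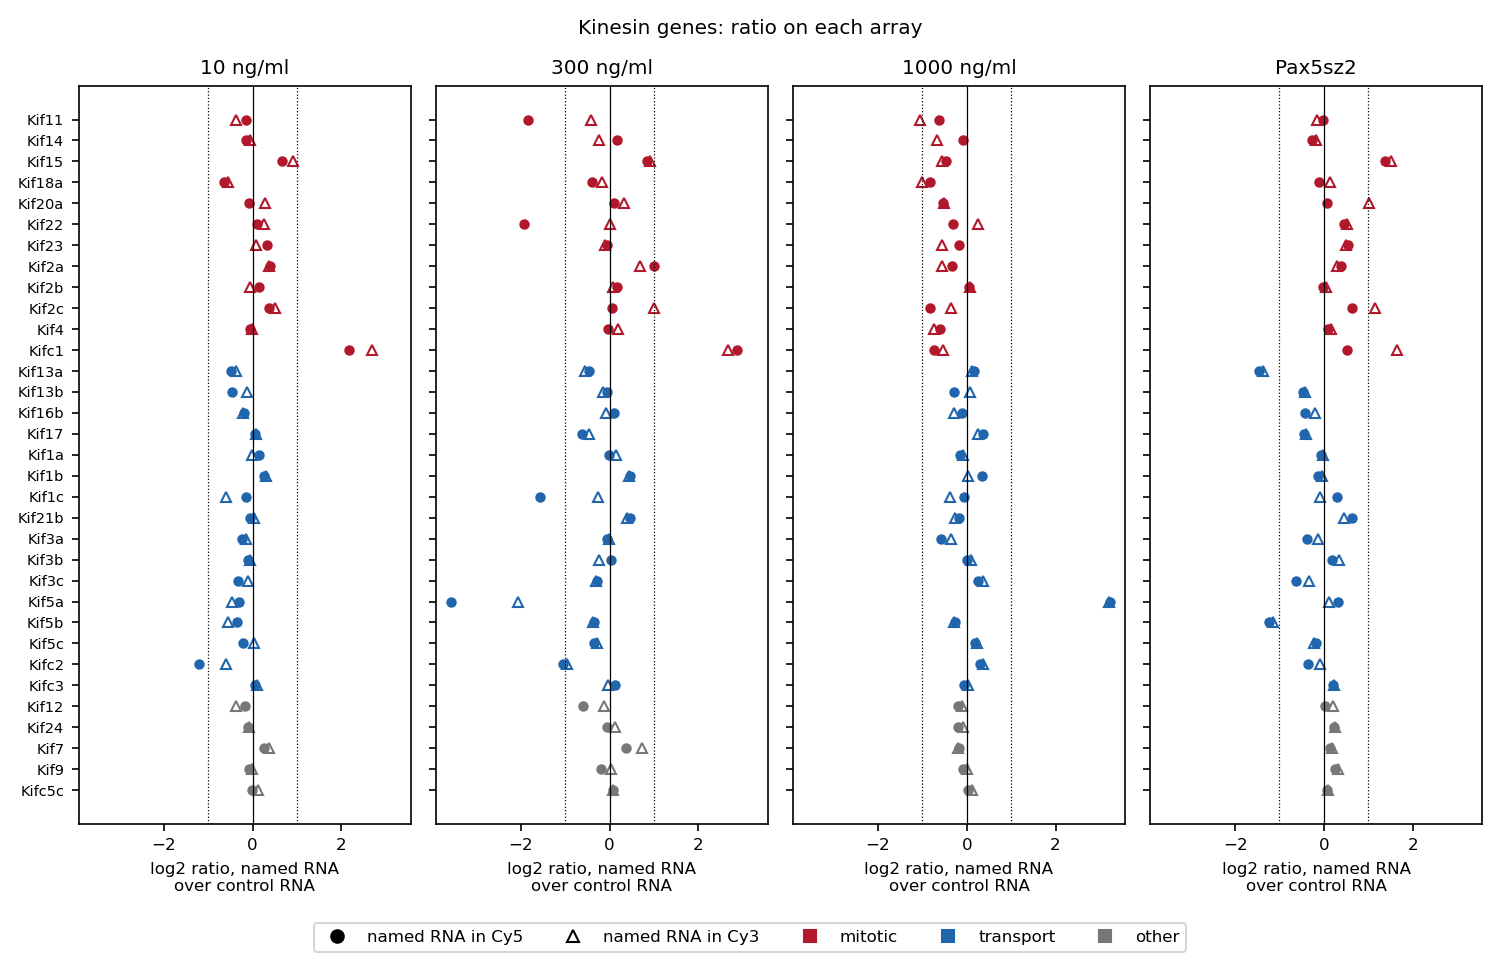
Log2 ratio of the named RNA over the control RNA for the 33 tested kinesins (rows, coloured by class) in the 4 comparisons. Circles are arrays with the named RNA in Cy5, triangles those with it in Cy3, and dotted lines mark a 2-fold ratio. Kifc1 lies at 2.18 to 2.87 at the low and middle doses, and Kif5a at -3.57 and -2.05 at the middle dose and at 3.22 and 3.20 at the high dose as labelled.

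Kif5a, a heavy chain of the conventional kinesin best known from neurons, had the lowest ratio of the family and, only as labelled, also the highest. It was -0.32 and -0.46 at the low dose, -3.57 and -2.05 at the middle dose, and 3.22 and 3.20 at the high dose as labelled, or -3.22 and -3.20 with the sign turned. In Pax5sz2 it was 0.32 and 0.11. At the middle dose it was 7.03-fold lower on average with an SD of 1.07, the array with the named RNA in Cy5 being the lower of the pair. The same array was the lower for Kif11, Kif22, Kif1c and the second Kif5b probe, whose middle-dose arrays differed widely. On it alone 472 of all tested features were past 2-fold upward and 1789 downward, against 441 and 656 on the other array. The reason was not tested. Only 1 Kif5a probe was tested: the other was not well above background and lay between -0.14 and 0.07 on every array.

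The level of Kif5a in the control RNA was not the same on all arrays. It was 10.80 and 11.17 on the low-dose arrays, 10.81 and 11.07 on the middle-dose arrays and 11.12 and 11.19 on the Pax5sz2 arrays, but 8.47 and 7.82 on the high-dose arrays. The named RNA stood at 7.24 and 9.02 at the middle dose and at 11.69 and 11.02 at the high dose. The control means of Kif5a spanned 3.01, against a median span of 0.52 over the 33 tested kinesins and 0.37 over all features. Without the high-dose pair they spanned 0.21.

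Myeloid marker RNA differed in the same direction as Kif5a at the middle and high doses, but not in Pax5sz2. The log2 of the summed intensity of 12 myeloid markers was 12.07 to 12.29 in the control RNA of the high-dose arrays and 15.20 to 15.44 in the control RNA of the other comparisons. In the named RNA it was 13.12 to 13.50 at the middle dose and 15.19 to 15.45 at the high dose. In Pax5sz2 it was 14.20 to 14.37 against 15.41 to 15.44 in the control, where Kif5a was above 0, and at the low dose 15.11 to 15.42 against 15.22 to 15.27. A sum weighs bright genes most, and Ctsg alone stood at 13.06 against 14.74 in Pax5sz2. The median ratio of the markers was -0.06 at the low dose, -0.56 at the middle dose, 0.74 at the high dose (-0.74 turned) and -0.06 in Pax5sz2. Of the 12, 4 were past the size downward at the middle dose, against 2.36% of all features. At the high dose as labelled 4 were past it upward, against 1.93%, and turned those 4 were downward. In Pax5sz2, 2 were past it downward (Fcgr3 at -4.08 and Ctsg at -1.68), against 2.83%. At the low dose 1 was upward and 1 downward, against 0.596% and 1.27%. Their part in the Kif5a ratio was not tested.

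**Figure D2:**
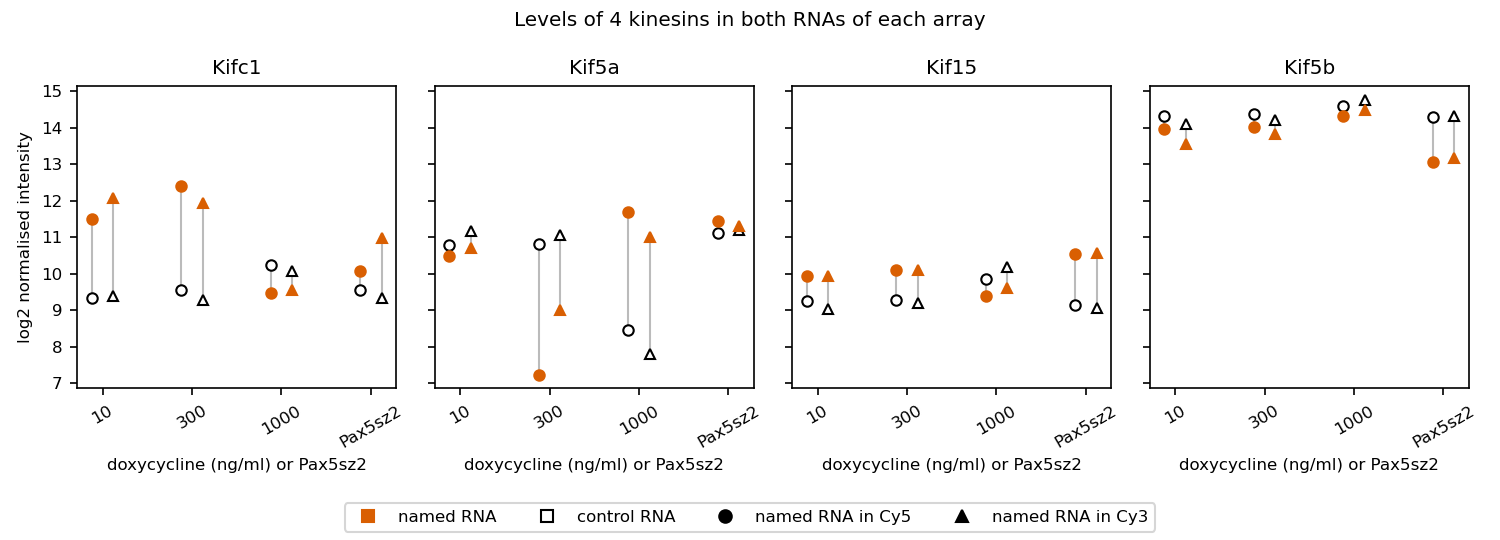
Log2 normalised intensity of Kifc1, Kif5a, Kif15 and Kif5b in the named RNA (orange) and the control RNA (white) of each array, with a grey line joining both RNAs of 1 array; circles are arrays with the named RNA in Cy5 and triangles in Cy3. Control levels of Kif5a sit at 10.80 to 11.19 on 6 arrays and at 8.47 and 7.82 on the high-dose arrays.

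Kif15, which keeps spindle poles apart together with Kif11, had its highest ratio in Pax5sz2. It was 1.39 and 1.51 there, 2.73-fold on average with an SD of 0.09. At the low dose it was 0.67 and 0.91 and at the middle dose 0.84 and 0.90, above 0 but under 2-fold. As labelled, the high dose gave -0.46 and -0.57, or 0.46 and 0.57 with the sign turned. The control RNA was at 9.16 and 9.07 on the Pax5sz2 arrays and at 9.02 to 9.27 on the low- and middle-dose arrays, and the named RNA of Pax5sz2 at 10.54 and 10.58.

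A second tested Kif15 probe, which was dimmer, had the opposite sign at the low dose, at the middle dose and in Pax5sz2. It was -0.51 and -0.54 at the low dose, -1.47 and -0.66 at the middle dose, 0.00 and -0.22 at the high dose (-0.00 and 0.22 turned), and -0.89 in Pax5sz2 (SD 0.16). The mean of both probes in Pax5sz2 was 0.28. The ratio above 0 is thus that of 1 probe. The 250 bases before its start, at chr9:122950831-122951080 on the plus strand, are shown with the same motifs in capitals, as the contrast within the mitotic class to Kifc1.
Kif15: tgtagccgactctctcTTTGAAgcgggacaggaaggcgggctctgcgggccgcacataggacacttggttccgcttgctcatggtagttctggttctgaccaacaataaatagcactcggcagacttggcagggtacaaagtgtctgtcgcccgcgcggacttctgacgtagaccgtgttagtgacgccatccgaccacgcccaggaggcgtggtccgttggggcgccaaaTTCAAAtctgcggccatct
Kif15 held TTTGAA at 234 bases and TTCAAA at 19 bases before the start and no CCAAT in this window.

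Kif5b and Kif13a were past the size downward in Pax5sz2. Kif5b, the heavy chain of conventional kinesin found in most tissues, was -1.23 and -1.15 there, 2.28-fold lower, and its second probe was -1.38 and -1.19. It was also below 0 on all arrays of the doses, at -0.36 and -0.56, -0.35 and -0.38, and -0.27 and -0.29 from the low to the high dose (0.27 and 0.29 with the last turned). Its second probe was -2.18 and -0.59 at the middle dose, where the arrays differed widely. With arrays centred on their median instead of loess, Kif5b in Pax5sz2 was -0.69 and no longer past the size.

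Kif13a, which carries vesicles from the trans-Golgi network and recycling endosomes, was -1.46 and -1.38 in Pax5sz2, 2.68-fold lower. It was -0.49 and -0.36 at the low dose, -0.47 and -0.56 at the middle dose, and 0.16 and 0.12 at the high dose as labelled, or -0.16 and -0.12 turned. Neither of its other tested probes shared this: in Pax5sz2 they were 0.04 and 0.04, and -0.14 and -0.09. The second had the opposite sign at the lower doses too, at 0.19 and 0.24 and at 0.35 and 0.33, and the third lay between -0.09 and 0.07 there. The mean over the 3 probes in Pax5sz2 was -0.50. Its promoter, at chr13:46929719-46929968 on the minus strand, is shown as a transport kinesin without either motif.
Kif13a: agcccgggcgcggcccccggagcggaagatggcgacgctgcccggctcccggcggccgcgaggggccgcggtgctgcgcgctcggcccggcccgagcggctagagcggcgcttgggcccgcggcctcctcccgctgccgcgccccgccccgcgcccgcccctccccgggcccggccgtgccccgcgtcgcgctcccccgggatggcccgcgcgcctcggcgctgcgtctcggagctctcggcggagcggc
In the RefSeq table, 34.5% of 27025 promoters of the same length (the first listed for each gene) held CCAAT on either strand and 16.3% held TTTGAA; at an abutting site both motifs can share 1 base. Of the kinesins on the array with an entry, 7 of 11 mitotic, 3 of 11 transport and 2 of 5 other genes held CCAAT, and 5, 0 and 1 held TTTGAA. These are matches of letters, and no binding was measured.

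**Figure D3:**
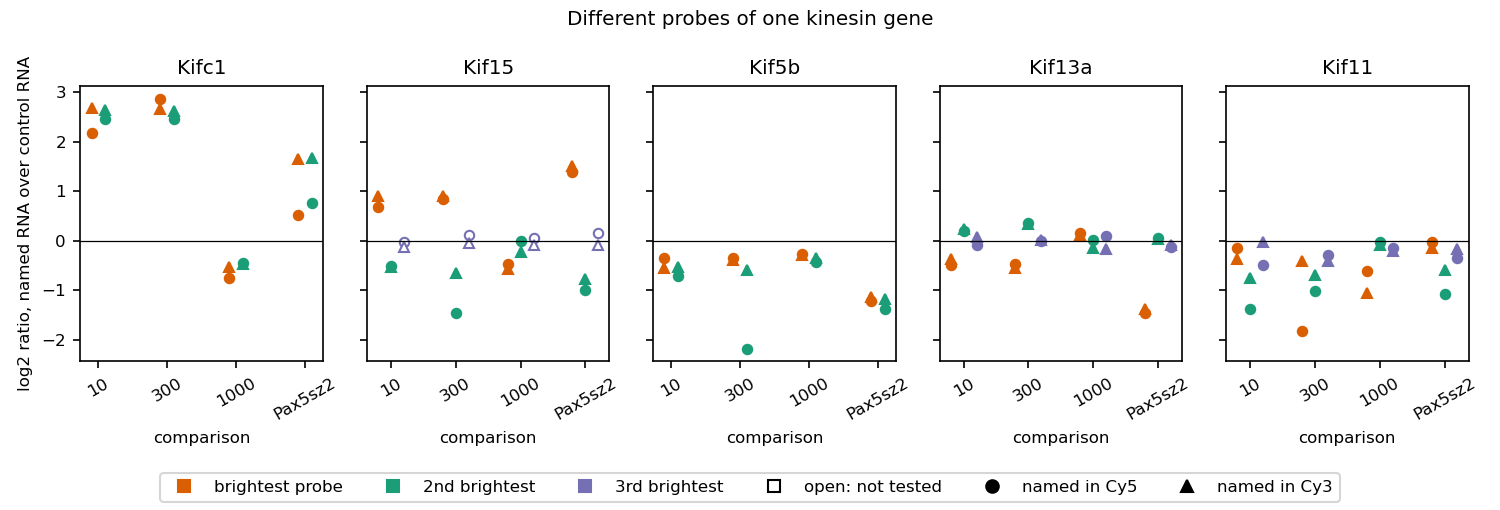
Log2 ratio on each array for every probe of Kifc1, Kif15, Kif5b, Kif13a and Kif11, coloured by rank of brightness; open symbols are probes not tested. Both Kifc1 probes lie together, the second Kif15 probe lies below 0 where the brightest is above it, and 2 of 3 Kif13a probes lie near 0 in Pax5sz2 against -1.46 and -1.38 for the brightest.

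Past the size at the low dose were thus 1 kinesin upward and 0 downward of 33, against 0.596% and 1.27% of all 20127 tested features. At the middle dose it was 1 upward and 1 downward, against 1.3% and 2.36%. At the high dose as labelled it was 1 upward and 0 downward, against 1.93% and 0.636%, and turned it was 0 and 1. In Pax5sz2 it was 1 upward and 2 downward, against 2.33% and 2.83%. These counts are too small to be set apart from the background; 5 genes passed the size in some comparison and 28 in none.

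The other mitotic kinesins moved by less than 2-fold on at least 1 array of each comparison. Kif11, which slides spindle poles apart, was -0.15 and -0.37 at the low dose, -1.83 and -0.41 at the middle dose, -0.62 and -1.05 at the high dose (0.62 and 1.05 turned) and -0.03 and -0.15 in Pax5sz2. Its middle-dose arrays differed widely. Its second, dimmer probe was -1.39 and -0.76, -1.01 and -0.69, -0.03 and -0.09 (0.03 and 0.09 turned), and -1.08 and -0.59 in the same order, and the third had means of -0.26, -0.35, -0.18 (0.18 turned) and -0.26. Kif18a, which damps chromosome movements on the spindle, was -0.64 and -0.55, -0.40 and -0.18, -0.83 and -1.01 (0.83 and 1.01 turned), and -0.11 and 0.15 in the same order.

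Kif2c, which takes apart microtubule ends at kinetochores, was 0.37 and 0.50 at the low dose, 0.06 and 1.00 at the middle dose, -0.83 and -0.36 at the high dose (0.83 and 0.36 turned) and 0.63 and 1.14 in Pax5sz2. It was above 0 on all 6 arrays other than those at the high dose. Kif20a, which brings the chromosomal passenger complex to the midzone, was -0.07 and 0.28, 0.11 and 0.33, -0.53 and -0.52 (0.53 and 0.52 turned), and 0.07 and 1.02 in that order. Kif23, a subunit of the centralspindlin complex of cytokinesis, was 0.32 and 0.07, -0.05 and -0.10, -0.18 and -0.56 (0.18 and 0.56 turned), and 0.54 and 0.49. As labelled, all 3 were lower at the high dose than on any of their other arrays; with the sign turned none was.

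Kif4, a motor bound to chromosome arms, was -0.07 and -0.01 at the low dose, -0.04 and 0.18 at the middle dose, -0.60 and -0.73 at the high dose (0.60 and 0.73 turned) and 0.09 and 0.16 in Pax5sz2. The 4 remaining mitotic genes, Kif14, Kif22, Kif2a and Kif2b, had means of -0.11 to 0.38 at the low dose, -0.96 to 0.85 at the middle dose, -0.44 to 0.07 at the high dose (-0.07 to 0.44 turned) and -0.23 to 0.49 in Pax5sz2. Kif2a, a microtubule depolymerase at spindle poles, was the highest of them at both lower doses, at 0.38 and 0.85; its second probe gave -0.01 and 0.16 and the third -0.42 and -0.32. Kif22, another chromosome-arm motor, was chosen after its values were seen. At the middle dose it was -1.93 with the named RNA in Cy5 and 0.00 on the other array.

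The mitotic class as a whole lay slightly above the transport class at the low dose, at the middle dose and in Pax5sz2, and below it at the high dose as labelled. At the low dose the median ratio was 0.14 over 12 mitotic and -0.20 over 16 transport kinesins, a difference of 0.34 (0.33 and 0.29 on single arrays). At the middle dose the medians were 0.09 and -0.21 and the difference 0.30 (0.26 and 0.38). In Pax5sz2 they were 0.42 and -0.21 and the difference 0.63 (0.51 and 0.51). At the high dose they were -0.52 and 0.02 and the difference -0.54 (-0.47 and -0.61), or 0.54 with the sign turned. The median over all tested features was 0.00 to 0.03. Averaging a gene's tested probes brought the difference to 0.13 at the low dose, 0.08 at the middle dose, -0.36 at the high dose as labelled and 0.38 in Pax5sz2, and the mitotic median at the middle dose to -0.00; the transport median at the high dose kept its sign under 4 of 9 settings.

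Counted by gene, 6 of 12 mitotic kinesins were above 0 on both arrays and 4 below at the low dose, against 38.6% and 36.1% of all features, and 6 and 3 at the middle dose, against 35.8% and 35.1%. In Pax5sz2, 8 were above and 2 below, against 41.8% and 35.3%. At the high dose as labelled, 1 was above and 10 below, against 33.7% and 30.5%, and turned the counts change places. The 1, Kif2b, was not well above background there in either RNA. Of 16 transport kinesins 10 were below 0 on both arrays at the low dose, 10 at the middle dose and 11 in Pax5sz2, with 3, 2 and 4 above. As labelled, 8 were above and 6 below at the high dose, and turned 6 and 8. At that dose Kif1a, Kif13b, Kif5c and Kifc3 were not well above background in either RNA. Kif17, Kifc2 and Kif3b were so in 1 RNA only, and these genes are part of the counts and medians.

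Of the transport kinesins chosen by function, 3 stayed under 2-fold on every array. Kif3a, the subunit of the ciliary motor, was -0.24 and -0.15 at the low dose, -0.06 and -0.02 at the middle dose, -0.58 and -0.36 at the high dose (0.58 and 0.36 turned) and -0.38 and -0.13 in Pax5sz2, below 0 on 8 arrays as labelled and on 6 turned. Kif1b, a carrier of mitochondria and synaptic vesicle precursors, was 0.26 and 0.30, 0.45 and 0.43, 0.34 and 0.02 (-0.34 and -0.02 turned), and -0.13 and -0.05 in the same order. Kif13b, a vesicle motor, was -0.47 and -0.13, -0.06 and -0.15, -0.28 and 0.08 (0.28 and -0.08 turned), and -0.46 and -0.42, not well above background at the high dose in either RNA.

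The other 10 transport kinesins had means of -0.90 to 0.07 at the low dose, -1.01 to 0.42 at the middle dose, -0.22 to 0.33 at the high dose (-0.33 to 0.22 turned) and -0.48 to 0.55 in Pax5sz2. Kifc2, a minus-end motor of neurons, singled out after its values were seen, lay lowest of them at both lower doses. It was -1.20 and -0.60 at the low dose and -1.05 and -0.97 at the middle dose, short of the size on 1 array of each. Kif1c, a vesicle motor, was chosen after its values were seen. At the middle dose it was -1.56 with the named RNA in Cy5 and -0.27 on the other array. Its other 3 tested probes had means of 0.01 to 0.11 there. Kif21b, a motor of neurons and lymphocytes, was the highest of the 10 at the middle dose and in Pax5sz2, with means of 0.42 and 0.55, while its second probe was at -0.55 and -0.05. The 5 other kinesins, among them Kif7, a regulator of Hedgehog signalling, lay between -0.37 and 0.55 as means in all comparisons under either sign. The second probe of Kif24, which controls centriole capping, was at 0.42 at the low dose where the brightest was at -0.09.

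A list of 30 genes of the mitotic machinery outside the kinesins (kinases, cyclins, checkpoint and kinetochore genes) gave medians of 0.14 at the low dose, 0.29 at the middle dose, -0.62 at the high dose as labelled (0.62 turned) and 0.38 in Pax5sz2. At the high dose as labelled 27 of the 30 were below 0 on both arrays, against 30.5% of all features, and turned those 27 were above. Only Aurka, the spindle pole kinase, passed the size, in Pax5sz2 at 1.32 ± 0.02. This is 1 of 30, against 2.33% of all features upward in Pax5sz2. DNA replication genes (20) had medians of 0.21, 0.24, -0.42 (0.42 turned) and 0.08 in the same order. Median centring in place of loess raised several of these: the replication medians became 0.51, 0.48, -0.57 and 0.63, and those of the mitotic machinery 0.47, 0.46, -0.72 and 0.76.

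A list of 10 genes around the kinesins held the light chains and adaptors of transport kinesins and Cenpe, itself a kinetochore kinesin of mitosis whose name lies outside the rule. Its medians were -0.21 at the low dose, -0.09 at the middle dose, 0.04 at the high dose (-0.04 turned) and -0.03 in Pax5sz2, with 0 past the size. Cenpe had means of 0.19, 0.29, -0.55 as labelled and 1.09, the highest of the list in Pax5sz2. The opposing motor, dynein with dynactin (12 genes), had medians of 0.14, -0.07, 0.29 (-0.29 turned) and 0.25. Of these only Pafah1b1, a dynein regulator, passed the size, in Pax5sz2 at 1.14 ± 0.04. This is 1 of 12, against 2.33% of all features upward in Pax5sz2. Over all features, 0.596% to 2.83% passed the size in 1 direction of a comparison, so these counts do not set the lists apart. Tubulins and microtubule proteins (13 tested) had medians of 0.20, 0.19, -0.19 (0.19 turned) and -0.14, with 0 past the size. The dynein median at the middle dose kept its sign under 6 of 9 settings and was 0.13 with the deposited ratios and 0.05 with median centring. The tubulin median in Pax5sz2 was 0.25 with median centring. Median centring also brought the dynein medians to 0.48 at the low dose and 0.58 in Pax5sz2, and those of tubulins to 0.46 at the low dose and 0.50 at the middle dose. The medians of the list with the light chains changed sign under 1 of 9 settings in each of 3 comparisons.

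**Figure D4:**
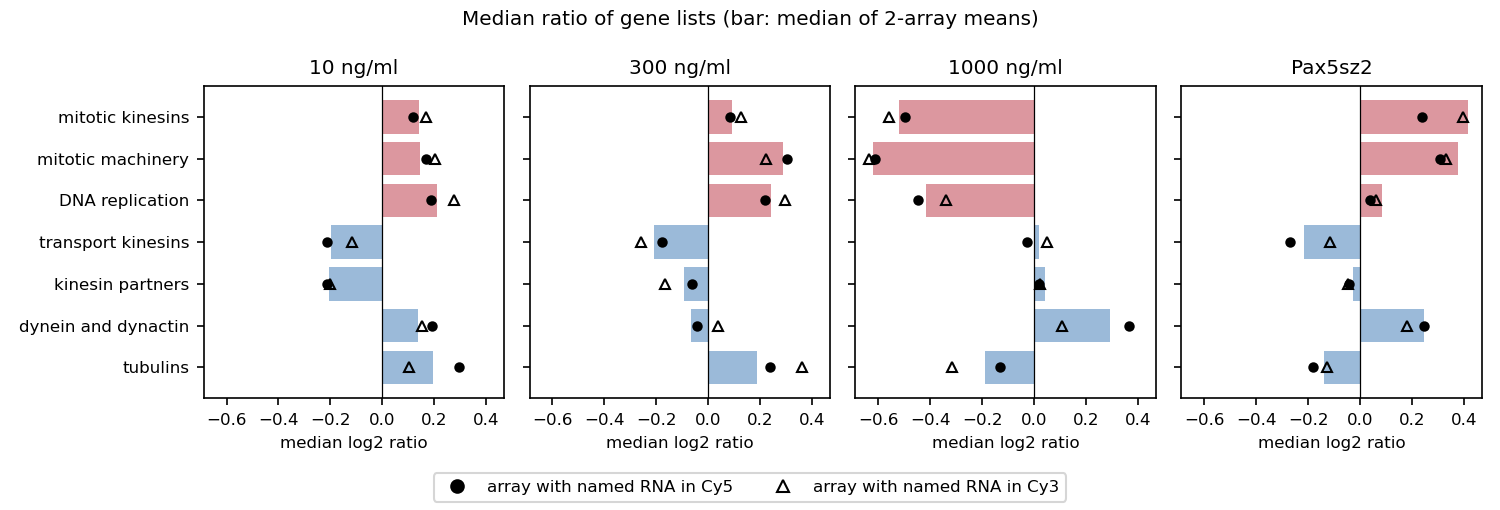
Median log2 ratio of 7 gene lists in the 4 comparisons: bars are medians of the 2-array means, circles and triangles the medians on the arrays with the named RNA in Cy5 and in Cy3. Mitotic kinesins, mitotic machinery and DNA replication lie above 0 in 3 comparisons and between -0.62 and -0.42 at the high dose as labelled, or 0.42 and 0.62 turned.

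A single effect of the 3 doses was fitted with limma over all features, so that differences between doses count as error. No feature of 20127 (0%) passed a Benjamini-Hochberg adjusted p of 0.05, and the smallest adjusted p was 0.701; 1192 features and 5 kinesins had an unadjusted p under 0.05. Kifc1 had a mean of 1.52 ± 0.83 (SE, adjusted p = 0.704 by limma) and Kif5a of 0.00 ± 1.35 (SE), since their high-dose ratios lie on the other side of 0. As labelled, Kif5b, with all 3 doses below 0, had the smallest unadjusted p of the family (-0.37 ± 0.07, SE, adjusted p = 0.701 by limma). With the high-dose sign turned, 0 features passed again, the smallest adjusted p being 0.12 and 4952 unadjusted p lying under 0.05. In that fit Kif2c had the smallest p of the family (0.52 ± 0.06, SE, adjusted p = 0.12 by limma) and Kif5b was at -0.18 ± 0.18 (adjusted p = 0.56). Kifc1 was at 1.95 ± 0.49 (adjusted p = 0.146) and Kif5a at -2.14 ± 0.65 (adjusted p = 0.177, both by limma).

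For Pax5sz2, limma likewise called 0 features (0%), with a smallest adjusted p of 0.0544 and of 0.179 among kinesins (Kif5b), and 2107 features under 0.05 unadjusted. This sample was assumed to vary as the doses do. With the high-dose sign turned 85 features and 0 kinesins were called.

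Left to the 6 arrays of the later scan, the fit rests on the difference between the low and middle doses as its error, which leaves out the spread of the shared control RNA. It called 2848 features, 5.56% higher and 8.59% lower. Of 33 kinesins 3 were higher: Kifc1 (2.60 ± 0.11, SE, adjusted p = 0.038), Kif15 (0.83 ± 0.06, adjusted p = 0.038) and Kif2c (0.48 ± 0.07, adjusted p = 0.046). Lower were 2, Kifc2 (-0.95 ± 0.07, adjusted p = 0.038) and Kif13a (-0.47 ± 0.07, adjusted p = 0.0463). All 5 had the same sign on the 4 arrays of both doses. Both Kifc1 probes shared the direction, but the calls of Kif15 and Kif13a rest on 1 probe each, with a second tested probe of the opposite sign on all 4 arrays. Kif2c and Kifc2 had only 1 probe each on the array. For Pax5sz2 the same fit called 1.37% of features higher and 1.58% lower, among them Kif15 higher and Kif13a and Kif5b lower, with adjusted p of 0.0468 to 0.0478 by limma. With 3 and 2 of 33, and 1 and 2 of 33, the kinesins called were too few to be set apart from these shares.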

How the data were processed

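RNA of 4 cultures was compared with RNA of clone4 huPax5 without doxycycline on 8 two-colour Agilent arrays (43790 spots, 2256 of them controls), 2 per comparison, dye-swapped. The deposited scanner files, per the file headers, give the mean spot and median background intensity of each channel, not normalized, written by Agilent Feature Extraction 10.5.1.1, and a log10 ratio of Cy5 over Cy3 made from its processed signals. The deposited series matrix equals that log10 ratio, turned on arrays with the named RNA in Cy3, to 5e-06. The high-dose pair used a background multiplier of 2.6 and no multiplicative detrend, the other 6 arrays 13 and detrend, per the file headers. This multiplier sets which spots are well above background, so detection followed another rule on the high-dose arrays.

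Here, with R 4.3.3 and limma 3.58.1, background was corrected by normexp (offset 50), ratios were normalized by loess with controls at weight 0, and outlier spots (114 to 423 on an array) were dropped. Saturated spots numbered 0. Spots of a probe were averaged. Precision is limited by the number of arrays. The limma fit (eBayes, Benjamini-Hochberg over 20127 features, two-sided) took each pair of arrays as 1 sample. The size rule and the limma fit were also run on simulated ratios. For the size rule these held no error shared by both arrays of a pair, and no result here rests on the simulation. Named genes were all kinesins past the size, 6 mitotic and 4 transport kinesins chosen by function; others are said to be chosen after their values were seen, as was the difference of 0.5 by which other probes were picked for description (Kif2a, Kif21b and Kif24 are named by it). Members, classes and lists were chosen with earlier results of these data known. Of 50 kinesin probes with an accession in the RefSeq table, 49 had the file's symbol. Alternatives were median centring, offset 10, no background correction, the deposited log10 ratio, other filters, the mean of probes, single arrays, robust eBayes and the turned high-dose sign. No paired analysis or block was used.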

Additional observations from a re-analysis of the deposited data

Results flagged for a closer look

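2 kinesins were past 2-fold at 1 dose while both arrays of another dose lay on the other side of 0. Kifc1 had a mean log2 ratio of 2.43 at the low dose and 2.76 at the middle dose, and -0.64 at the high dose as labelled. Kif5a had a mean of -0.39 at the low dose, -2.81 at the middle dose and 3.21 at the high dose as labelled. The differences between doses were not tested, since each dose is 1 RNA pair. With the high-dose sign turned, both genes lie on the same side of 0 at all 3 doses.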

How the results depend on the processing

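The ratios of Kifc1 at the low dose (2.43 to 2.65) and the middle dose (2.65 to 2.99), of Kif5a at the middle dose (-3.00 to -2.30), and of Kif5b (-1.24 to -0.69), Kif13a (-2.02 to -0.50) and Kif15 (0.28 to 1.75) in Pax5sz2 kept their direction under 7 processing alternatives. The filters among these alternatives only choose which features are kept and cannot move the ratio of a gene. The mean of probes could not move Kif5a either, which had 1 tested probe. Turning the high-dose sign made Kif5a -3.21 and the mitotic minus transport difference 0.54. That difference was otherwise, at the low dose, 0.50 with median centring, 0.39 with features above background in every comparison (10903 features, 20 kinesins), 0.13 with the mean of probes and 0.29 to 0.33 with 1 array left out. At the middle dose it was 0.47 with the deposited ratios, 0.21 with no filter and 0.0784 with the mean of probes. At the high dose it was -0.33 with the stricter filter and -0.36 with the mean of probes. In Pax5sz2 it was 0.88 with median centring, 0.72 with offset 10, 0.62 with no background correction, 0.69 with the deposited ratios, 0.74 with the stricter filter, 0.61 with no filter, 0.38 with the mean of probes and 0.51 to 0.51 with 1 array left out. The mitotic median at the middle dose was -0.00 under 1 of 9 settings, and the transport median at the high dose kept its sign under 4 of 9. Kinesins past the size, upward, numbered 2 at the middle dose with the deposited ratios and 2 with either single array; 0 at the high dose turned; and in Pax5sz2 3 with median centring, 3 with the deposited ratios, 0 with the mean of probes and 1 to 4 with 1 array. Downward they numbered 1 at the low dose with the deposited ratios and 0 to 1 with 1 array; at the middle dose 2 with offset 10, 4 with the deposited ratios and 1 to 5 with 1 array; at the high dose 1 with the deposited ratios, 1 turned and 0 to 2 with 1 array; and in Pax5sz2 1 with median centring and 1 with the mean of probes. The limma fits called 0 features and 0 kinesins for the doses, except without the high-dose pair (2848 and 5). For Pax5sz2 they called 7 features with the deposited ratios, 5 with no filter, 4 with the mean of probes, 0 to 7 with 1 array, 85 with the sign turned and 595 (3 kinesins) without the high-dose pair. Median centring moved the median of all features in Pax5sz2 from 0.03 to 0.15. It changed the upward and downward calls over all features from 120 and 256 to 73 and 75 at the low dose, from 262 and 474 to 95 and 383 at the middle dose and from 469 and 570 to 479 and 208 in Pax5sz2. The cause of these changes was not tested. No paired analysis was possible because the array numbers name dyes and not shared cultures. Of 33 tested kinesins 28 were well above background in both RNAs at the low dose, 25 at the middle dose, 20 at the high dose and 28 in Pax5sz2, and the others have only a bound in 1 RNA or both. The high-dose count is not comparable with the others, since its background multiplier was 2.6 and not 13.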

Other observations

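8 further probes are described in the files as kinesins but carry another name, and stand outside the rule. The probe described as kinesin family member 13B had means of -0.54 at the low dose, -0.63 at the middle dose, -0.06 at the high dose as labelled and -0.75 in Pax5sz2, the lowest of the 8 in 3 comparisons, against -0.30, -0.10, -0.10 and -0.44 for the brightest Kif13b probe. The probe described as kinesin family member 23 was -0.18 to 0.00 as labelled, where the brightest Kif23 probe was 0.52 in Pax5sz2 and the second Kif23 probe 0.17. Among the 27 other tested probes of the named kinesins, 14 had the sign of the brightest probe at the low dose, 16 at the middle dose, 20 at the high dose and 19 in Pax5sz2.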
